A study of Homo sapiens with 20 samples.

Results

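Olaparib was compared with no treatment in LOVO cells that carried a control short hairpin RNA (shControl), by ATAC-seq, in which a transposase cuts and tags DNA that is open in chromatin. LOVO is an established human colon adenocarcinoma line known for deficient mismatch repair. The members were chosen by their labels: 6 of the 20 samples of the series, 2 given olaparib and 4 untreated, of which 2 were labelled as a second batch. The series also holds LOVO cells with a hairpin against METTL3 (shMETTL3) and a second colon line, RKO, in the same states. The dose and the length of treatment are not given in the sources used here, nor whether the samples of a group came from separate cultures.

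The deposited data were lists of open intervals on hg38, each for a group and none for a single sample. The olaparib group had 1 list of 32192 intervals that covered 12.3 Mb. The untreated group had a scored list of 41431 intervals that covered 14.1 Mb, used as the reference, and a second, merged list of 33474 wider intervals with no scores, used as a check on it. Which of them holds the second-batch samples is not stated. The labels give no batch for the olaparib samples, so batch and olaparib cannot be told apart in the lost and gained calls. With 1 list on the olaparib side no test between the groups was possible. All differences are therefore descriptions, and the 95% exact binomial intervals given with shares cover counting error only. The depth behind each list is unknown, so an interval that a list lacks is not shown to be closed chromatin. Fewer open cells and less open chromatin per cell cannot be told apart in bulk samples.

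Olaparib blocks poly(ADP-ribose) polymerases, above all PARP1 and PARP2, which sense DNA breaks, build chains of ADP-ribose on themselves and on nearby proteins, loosen chromatin around the damage and recruit repair factors. The drug also holds the enzymes on DNA, and cells that cannot mend the resulting breaks by homologous recombination die. In colon epithelium, open chromatin at gene starts is shared widely between cell states, whereas distal elements carry much of the identity of a cell type through factors such as CDX2 and HNF4A.

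An untreated interval that shared at least 1 bp with an olaparib interval was called kept and any other was called lost. An olaparib interval with no untreated partner was called gained. A gene was called open in a list when an interval lay within 1000 bp of its start, or of either end where the strand was not at hand, and lost or gained when it was open only in the untreated or only in the olaparib list. Promoters of 7 genes that were lost or gained are printed first, so that the letters under the intervals can be read beside the values. Each run below holds 250 bases before the gene start and 50 from it, read on the gene's own strand from RefSeq on GRCh38.p14. Capitals mark motifs found by their letters on either strand. The AP-1 motif TGANTCA was in 6.15% of all 22199 promoters of protein-coding genes, and the TEAD motif GGAATG was in 12.2% of them. The cyclic AMP response element TGACGTCA, in 2.26%, and the ETS motif CCGGAAG, in 12.8%, are bound by other families of factors. Among elements of core promoters, the CCAAT box was in 34.7%, the GC box GGGCGG in 56.3% and the TATA letters TATAAA in 9.47%. The NF-kB motif is marked by name alone and was in 12.7%. Positions count from 0 at the gene start, and a match is a description of letters, not a binding site.

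The first 3 are promoters of inducible genes whose interval the olaparib list lacked while both untreated lists held one, shown because AP-1 and TEAD letters can be placed against the interval in them. They were chosen after their values were seen. CXCL8 encodes the neutrophil chemokine interleukin-8, IL1A an alarm cytokine of epithelia, and CCN2 (CTGF) a matrix protein that is a standard target of YAP and TEAD.
CXCL8, chr4:73740319-73740618, plus strand: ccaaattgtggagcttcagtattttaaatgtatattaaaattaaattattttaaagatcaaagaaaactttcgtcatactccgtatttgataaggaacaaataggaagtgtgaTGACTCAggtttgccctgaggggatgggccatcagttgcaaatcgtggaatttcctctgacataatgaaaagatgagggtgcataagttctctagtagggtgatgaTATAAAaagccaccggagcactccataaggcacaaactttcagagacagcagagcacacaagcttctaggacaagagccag
IL1A, chr2:112784351-112784650, minus strand: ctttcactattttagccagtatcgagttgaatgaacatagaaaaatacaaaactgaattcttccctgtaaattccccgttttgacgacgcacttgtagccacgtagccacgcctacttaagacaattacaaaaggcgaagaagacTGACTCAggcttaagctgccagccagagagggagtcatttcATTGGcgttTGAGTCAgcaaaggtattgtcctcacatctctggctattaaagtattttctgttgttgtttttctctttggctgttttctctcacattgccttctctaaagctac
CCN2, chr6:131951323-131951622, minus strand: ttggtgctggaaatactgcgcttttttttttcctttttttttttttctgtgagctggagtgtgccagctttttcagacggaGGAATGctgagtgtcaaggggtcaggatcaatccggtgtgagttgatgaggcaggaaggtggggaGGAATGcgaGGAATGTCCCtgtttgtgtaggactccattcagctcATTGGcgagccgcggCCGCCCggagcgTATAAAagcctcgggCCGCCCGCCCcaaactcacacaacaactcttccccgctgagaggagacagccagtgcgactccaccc

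The CXCL8 promoter held AP-1 letters at -137 and TATA at -31, and its untreated interval (chr4:73740444-73740688, score 8.37) covered 175 of the 300 bases, which left the AP-1 letters just outside. The IL1A promoter held AP-1 letters at -105 and -55 and a CCAAT box at -64 between them, with 197 of its bases in the untreated interval (chr2:112784310-112784547, score 9.35). CCN2 held TEAD letters at -169, -104 and -95, the last of them inside an NF-kB match, and TATA at -32, with 240 bases in the untreated interval (chr6:131951185-131951562, score 6.50). No olaparib interval lay within 1000 bp of any of these starts.

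The next pair came from the 4 genes with a RefSeq promoter that had the highest untreated scores among those open in both untreated lists and lost with olaparib. The other members were TMCC2, whose interval covered 11 bases of the run, and ERMN, whose run held none of the motifs. ZKSCAN1 encodes a zinc finger protein and DLX6 a homeobox factor of limb and forebrain.
ZKSCAN1, chr7:100015346-100015645, plus strand: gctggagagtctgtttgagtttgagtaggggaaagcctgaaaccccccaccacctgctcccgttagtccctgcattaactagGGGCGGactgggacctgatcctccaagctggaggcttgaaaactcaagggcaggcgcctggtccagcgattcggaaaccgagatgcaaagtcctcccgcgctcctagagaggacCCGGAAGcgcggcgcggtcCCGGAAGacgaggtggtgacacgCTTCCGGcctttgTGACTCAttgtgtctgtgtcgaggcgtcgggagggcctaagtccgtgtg
DLX6, chr7:97005303-97005602, plus strand: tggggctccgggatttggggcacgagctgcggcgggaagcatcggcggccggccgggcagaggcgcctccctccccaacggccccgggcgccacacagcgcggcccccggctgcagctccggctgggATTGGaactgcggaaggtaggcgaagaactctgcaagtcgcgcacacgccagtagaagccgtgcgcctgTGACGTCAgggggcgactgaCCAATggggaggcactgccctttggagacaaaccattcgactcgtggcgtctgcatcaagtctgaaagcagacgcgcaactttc

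ZKSCAN1 (untreated interval chr7:100015470-100015826, score 16.6, 176 bases in the run) held ETS letters at -54, -35 and -12 and AP-1 letters at 1. DLX6 (chr7:97005354-97005573, score 13.3, 220 bases) held CRE letters at -54 and CCAAT boxes at -123 and -34. Both were open in the olaparib list of shMETTL3 cells.

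On the gained side the promoter of TVP23C, a Golgi membrane protein, had the highest olaparib score among genes closed in both untreated lists, and EED, a core subunit of Polycomb repressive complex PRC2, was chosen after its values were seen.
TVP23C, chr17:15563434-15563733, minus strand: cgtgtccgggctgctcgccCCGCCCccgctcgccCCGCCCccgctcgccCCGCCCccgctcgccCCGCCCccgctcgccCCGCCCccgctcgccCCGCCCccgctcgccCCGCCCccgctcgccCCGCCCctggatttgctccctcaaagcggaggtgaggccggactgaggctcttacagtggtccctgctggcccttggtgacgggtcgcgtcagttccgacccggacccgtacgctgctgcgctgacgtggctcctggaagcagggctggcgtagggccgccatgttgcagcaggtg
EED, chr11:86244503-86244802, plus strand: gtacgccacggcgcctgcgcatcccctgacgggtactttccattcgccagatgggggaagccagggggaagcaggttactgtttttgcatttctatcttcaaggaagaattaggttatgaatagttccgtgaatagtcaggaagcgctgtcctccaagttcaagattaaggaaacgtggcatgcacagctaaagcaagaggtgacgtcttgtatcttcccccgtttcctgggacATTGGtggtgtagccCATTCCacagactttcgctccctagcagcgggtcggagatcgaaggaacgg

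TVP23C (olaparib interval chr17:15563422-15563606, score 9.12, 173 bases in the run) carried 8 GC boxes, 15 bases apart, at -231, -216, -201, -186, -171, -156, -141 and -126. The interval ended inside the last of these, and the others lay outside it. TVP23C has a close copy, TVP23B, on the same chromosome, so the authors' alignment could have split reads between them, and the readthrough gene TVP23C-CDRT4 shares the start. EED (chr11:86244465-86244779, score 7.21, 277 bases) held a CCAAT box at -16 and TEAD letters at -1. The interval at EED is 1 of 2 with the same peak name and score, the other being chr11:86245068-86245301, and EED was open in the merged untreated list. MAOA, URAD and IL12B followed TVP23C in score, but their intervals lay outside the printed window.

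Across the genome the olaparib list was shorter than the untreated list, and most of what it held was also in the untreated list. Of 41431 untreated intervals, 29764 were kept, 71.8% (71.4 to 72.3). The other 11667 were lost, 28.2%. Of 32192 olaparib intervals, 2960 were gained, 9.19% (8.88 to 9.52). The olaparib list thus held 0.777 times as many intervals as the untreated list and covered 0.873 times as many bases. The shares moved with list length: with the untreated list held to its 32192 highest scores, 80.9% were kept and 20.2% were gained. Kept shares varied little by chromosome, between 69.1% on chromosome 10 and 74.6% on chromosome 19.

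Loss differed by place. At gene starts 86.2% of untreated intervals were kept (85.5 to 86.8), against 65.3% in gene bodies (64.5 to 66.1) and 66.3% between genes (65.6 to 67.0). Gene starts made up 14.5% of lost and 35.4% of kept intervals. The step lay at the promoter itself: 86.4% were kept within 1000 bp of a protein-coding gene start, and between 65.5% and 66.9% in each of the 5 classes of distance beyond it, out to more than 200000 bp. Gains, like losses, were rarer at gene starts, with 5.87% of olaparib intervals gained there and 10.9% both in gene bodies and between genes.

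**Figure D1:**
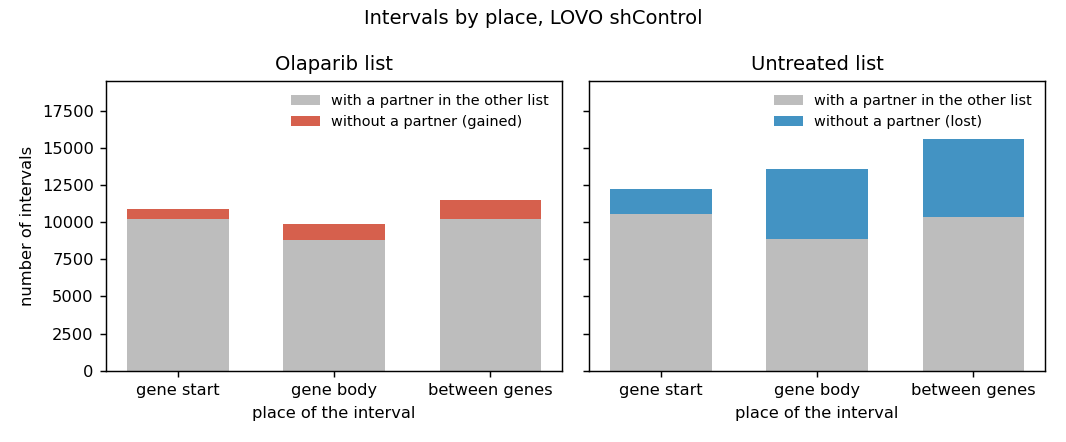
Number of intervals (y axis) by place (x axis) in the olaparib list (left) and the untreated list (right), with intervals that overlap the other list in grey and those that do not in red (gained) or blue (lost). Lost intervals were 28.2% of the untreated list and lay mostly in gene bodies and between genes, where 65.3% and 66.3% were kept, against 86.2% at gene starts.

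The kept share ran with the authors' score of each peak, taken here as a rank within a list. Scores set side by side between lists, here and for single genes, are the deposited values on a scale not known to be shared. The untreated list was divided by score into 10 classes of equal size. In the lowest class 32.3% of intervals were kept (30.9 to 33.8), in the fifth class 69.9% (68.5 to 71.3) and in the highest class 98.6% (98.2 to 99.0). Lost intervals had a median untreated score of 6.53, up to 20.1, against 10.3 for kept ones, and were narrower, with a median width of 176 bp against 355 bp. Gained intervals had a median olaparib score of 5.35, up to 14.7, against 8.89 for shared ones, and a median width of 199 bp against 352 bp.

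**Figure D2:**
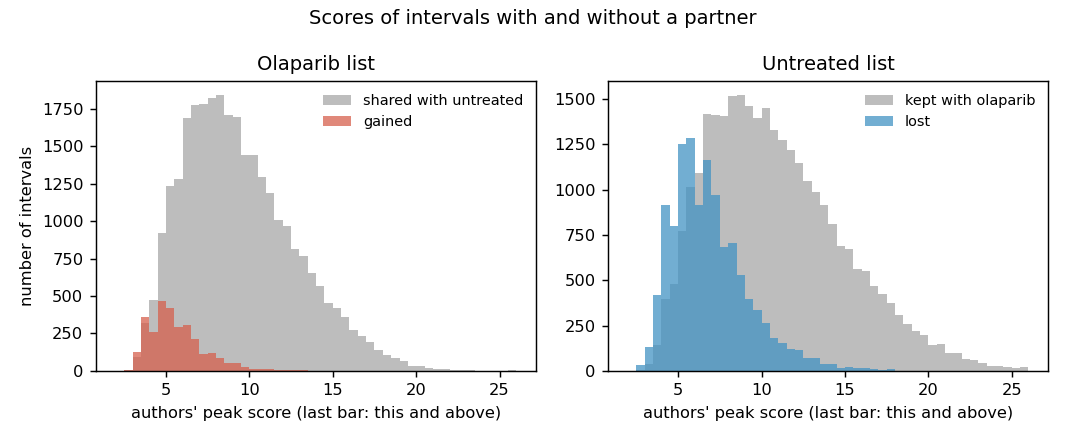
Number of intervals (y axis) by the authors' peak score (x axis) in the olaparib list (left, gained in red) and the untreated list (right, lost in blue), with intervals that have a partner in the other list in grey. Gained intervals had a median score of 5.35 against 8.89 for shared ones, and lost intervals 6.53 against 10.3 for kept ones, so both lie toward the low end.

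The promoter difference was present at matched score. In the third score class from the bottom 75.8% of intervals at gene starts were kept (73.0 to 78.5) and 48.3% between genes (45.9 to 50.8). The difference averaged 16.2 percentage points over the 10 classes and ran between 1.61 and 27.5 points, against 19.9 points over all intervals. In the lowest class of olaparib scores 32.3% of intervals at gene starts were gained, 43.7% in gene bodies and 40.9% between genes.

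**Figure D3:**
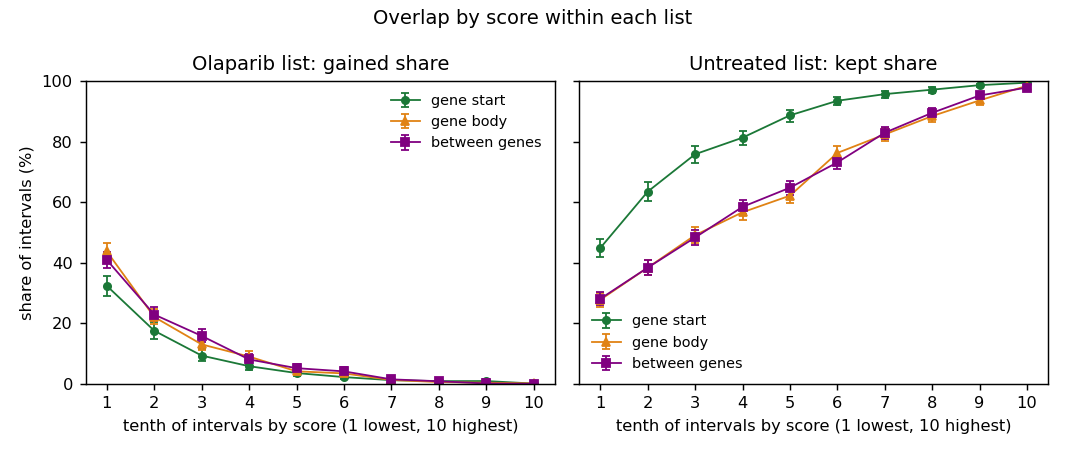
Share of intervals gained with olaparib (left, y axis in percent) and kept with olaparib (right) by score class within the list, 10 classes of equal size (x axis), for gene starts (green circles), gene bodies (orange triangles) and intervals between genes (purple squares), with exact 95% binomial intervals. Gene starts were kept more often than intervals between genes in all 10 classes, for example 75.8% against 48.3% in the third.

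Among the 28291 intervals that paired 1 with 1, the median score was 8.90 in the olaparib list and 10.3 in the untreated list, and 26.3% had the higher score with olaparib. Their scores ranked alike, with a Spearman correlation of 0.79 over pairs, which share a genome and are not replicates. Since the scale of the score between lists is not stated, the shift by itself is not a change in openness. It was somewhat smaller at gene starts (9.56 with olaparib, 10.8 untreated) than between genes (8.60 and 10.2).

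The second untreated list shows how far each side of the comparison rests on 1 list. Of lost intervals, 5356 (45.9%) were also present in the merged untreated list, against 87.9% of kept ones, and the other 6311 were in the scored untreated list alone. Of gained intervals, 1195 (40.4%) were already open in the merged list. The olaparib list of shMETTL3 cells, which had 51462 intervals, held 8097 of the lost intervals (69.4%) and 60.8% of the gained ones, against 96.4% of kept ones. Losses that were in both untreated lists and absent from both olaparib lists numbered 1012, 8.67% of all losses. Gains absent from both untreated lists and present in both olaparib lists numbered 966, 32.6% of all gains. Of these, 20.8% of the losses and 20.5% of the gains were at gene starts. The shMETTL3 olaparib list is longer than the 32192 intervals of the shControl one, so presence in it is easier to meet than absence. The shares of 8.67% and 32.6% are therefore not comparable.

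Most lost intervals lay far from any olaparib interval. The median distance from a lost interval to the nearest olaparib interval was 14668 bp, with 3.52% within 250 bp and 58.9% beyond 10 kb. For gained intervals the median distance to an untreated interval was 12199 bp, with 7.20% within 250 bp.

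The 10 gained intervals with the highest scores lay near PAX8, HNRNPA3, ITPR2, MTMR4, TMCC1, C15orf40, RPL15, STAM2, COG3 and GCLM. All 10 were present in the merged untreated list and lay 89 to 483 bp from an untreated interval, and 9 of them were at gene starts. The interval in the gene body next to PAX8 (chr2:113240544-113240676), a thyroid and kidney transcription factor gene, scored 14.7 and lay 174 bp from one. The interval at GCLM (chr1:93908897-93909157), which encodes a subunit of the enzyme that makes glutathione precursors, scored 13.0 and lay 209 bp from one. The gained intervals with the highest scores thus lay beside intervals of the untreated list.

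The 10 lost intervals with the highest scores lay away from gene starts, except those at MAST2 and SCAMP3. All 10 were in the merged untreated list and 9 were still present in the olaparib list of shMETTL3 cells. The highest was chr1:166910496-166910665, 34316 bp from the start of TADA1, a subunit of a histone acetyltransferase complex, with a score of 20.1 and no olaparib interval within 33882 bp. It was followed by chr2:237723722-237723917 near LRRFIP1, a regulator of transcription and nucleic acid sensing, with a score of 19.7. The others were near MAST2, PTPN1 (a phosphatase that restrains insulin and cytokine receptors), GALNT7 (an enzyme that starts O-linked sugar chains), PDZD2, SCAMP3, CELSR1 (a planar polarity cadherin), PAPOLG and LIMA1 (an actin-bundling protein of epithelia), with scores between 17.6 and 17.8.

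Other intervals led when both untreated lists and both LOVO olaparib lists were required, a choice made after the data were seen. The highest-scoring gains absent from both untreated and present in both olaparib lists were chr17:55287304-55287475 in the body of HLF, a circadian leucine zipper factor (score 10.7), and chr5:35852074-35852288 next to IL7R, the interleukin-7 receptor (score 10.2). Among such gains a gene-start interval was led by TMEM127 (chr2:96260733-96260997, score 9.38), a tumour suppressor that restrains mTOR. Among the 10 highest such losses, led by SCAMP3, ADISSP and STK25 with scores of 17.7, 16.5 and 15.9, 9 lay between 241 and 402 bp from an olaparib interval. The exception was chr21:42593201-42593623 near PDE9A, a cyclic GMP phosphodiesterase, 74492 bp from any olaparib interval, with a score of 13.8.

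At the level of genes, 10832 of 20037 protein-coding genes were open with olaparib and 11317 untreated. Of the untreated open genes 795 were lost, 7.02% (6.56 to 7.51), and of the 8720 closed ones 310 were gained, 3.56% (3.18 to 3.97). With the untreated list held to the length of the olaparib list the balance turned, with 363 genes lost and 1185 gained. Among the 10124 genes open in both untreated lists 339 were lost, 3.35%, and among the 8432 genes closed in both 184 were gained, 2.18%. Of lost genes 80.4% were open in the olaparib list of shMETTL3 cells, and 39 were lost in all 4 lists. Those gained in all 4 lists numbered 126, a count not comparable with the 39 because the shMETTL3 olaparib list is the longer one. The highest untreated scores among the 39 belonged to CTDSPL, a small phosphatase that acts on RNA polymerase II (14.4), and VWA5A (13.1). CDH3, which encodes P-cadherin and lies next to CDH1, was among the 126 with an olaparib interval at chr16:68645068-68645666 (score 7.72). These 3 were chosen after their values were seen.

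Gene losses lay mostly at promoters with low scores. With open genes in 5 equal classes by untreated gene-start score, 25.6% were lost in the lowest class, with scores up to 7.48 (23.8 to 27.4). The share was 6.76%, 1.86% and 0.840% in the next classes and 0.0883% in the highest, which was 2 of 2264. Lost genes had a median untreated score of 6.14 against 11.2 for genes open in both lists. Gained genes had a median olaparib score of 5.42 against 9.87. Long non-coding RNA genes with a RefSeq promoter lost their interval more often than protein-coding genes in the same table, 11.7% (10.5 to 13.0) against 6.36% (5.87 to 6.87).

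Promoters gained or lost were close to kept ones in base composition and held the CCAAT box and ETS letters less often. For sequence, state was given to each of the 22199 promoters by whether an interval overlapped its own 300 bases, so a gene can hold promoters of several states and these counts differ from those of genes. The median GC content was 69% in the 469 gained, 67% in the 908 lost, 66% in the 9534 kept and 56.7% in the 11288 closed in both lists, and the median number of CpG pairs was 29, 27, 27 and 8. The CCAAT box was present in 24.3% of gained and 24.4% of lost promoters, against 39.7% of kept and 31.7% of closed ones. ETS letters were present in 15.8% of gained and 10.9% of lost promoters, against 22.6% of kept and 4.66% of closed ones. AP-1 letters differed little, at 5.12% of gained, 5.62% of lost and 4.49% of kept promoters, against 7.65% of closed ones.

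Of 9 genes tied to the drug's action, those open in the untreated list were also open in the olaparib list. PARP1, the main target, scored 7.74 with olaparib and 8.18 untreated (chr1:226407807-226408411 and chr1:226407686-226408392). PARP2 scored 17.0 with olaparib and 20.1 untreated, and HPF1, the cofactor that directs both enzymes to serine, scored 7.42 with olaparib and 9.09 untreated. PARG, which removes the chains, had no gene-start interval in any list used. SLFN11, which kills cells with stalled replication forks and whose absence is known from drug-resistant lines, had none either. ABCB1, the efflux pump that exports olaparib, scored 9.05 with olaparib and 13.8 untreated. TP53BP1, which steers breaks to end joining, scored 12.8 with olaparib and 17.1 untreated. CDKN1A and MDM2, targets of p53, were open in both lists: CDKN1A scored 7.50 with olaparib and 6.57 untreated, and MDM2 had its highest score at a different interval in each list.

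The wider set of 28 gene lists held 762 genes, of which 591 were open with olaparib and 610 untreated. In all, 31 of the 610 were lost and 12 were gained, beside 7.02% of open genes lost and 3.56% of closed genes gained over all protein-coding genes. Of the 31, 17 were open in the merged untreated list and 29 were open in the olaparib list of shMETTL3 cells. Their untreated scores ran between 3.30 and 10.3, with a median of 6.50. No member was lost from 9 of the lists.

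DNA repair, checkpoint and replication genes were nearly all kept. The 6 lists together held 159 genes, of which 150 were open with olaparib and 150 untreated, with 2 lost and 2 gained. None of 47 open genes of the homologous recombination and Fanconi anaemia list was lost (0%, up to 7.55). Not all members act in homologous recombination, since the list also holds TP53BP1, RIF1, MAD2L2, SHLD1, SHLD2 and SHLD3. BRCA2, a mediator of homologous recombination, scored 9.13 with olaparib and 12.2 untreated. UBE2T, the ubiquitin-conjugating enzyme of the Fanconi pathway, led the list with 19.9 with olaparib and 22.0 untreated. End joining lost none of 13, mismatch repair none of 9, the checkpoint none of 21 and replication none of 33. Examples with the highest untreated scores were XRCC4, a scaffold of the ligase that joins ends (17.0 with olaparib, 22.9 untreated), CDC25C, a mitotic phosphatase (19.4 and 23.3), and MCM3, a subunit of the replicative helicase (17.7 and 25.1). The median untreated gene-start score was 12.6 for homologous recombination, 12.7 for replication, 12.2 for the checkpoint, 12.0 for end joining, 11.4 for base excision repair and 9.19 for mismatch repair, beside 10.8 over all open genes.

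Of base excision repair and PARP genes, PARP14 and MPG were lost out of 28. PARP14, an interferon-inducible mono-ADP-ribosyltransferase, lost both of its gene-start intervals, of which chr3:122679928-122680218 had the higher score (6.66), and MPG, the glycosylase that removes alkylated bases, lost chr16:77346-77624 (score 5.39). Both were absent from the merged untreated list and present with olaparib in shMETTL3 cells. NEIL1, a glycosylase for oxidised bases, gained chr15:75347275-75347655 (score 5.04), and TOPBP1, the activator of the ATR kinase, gained chr3:133661884-133662082 (score 5.80). TOPBP1 was open in the merged untreated list.

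All 29 open p53 targets were kept (0% lost, up to 11.9), and 88.4% of the 69 untreated intervals within 50000 bp of them were kept. Over all genes, 26.0% of untreated intervals within 50000 bp of a protein-coding start were lost and 8.12% of olaparib ones gained. TIGAR, which diverts sugar to the pentose phosphate pathway, scored 16.2 with olaparib and 21.4 untreated, and GADD45A, a stress sensor, 9.23 and 15.1. All 24 open genes of the m6A machinery were kept, METTL3 among them with 16.3 with olaparib and 18.6 untreated.

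The NF-kB and inflammatory list lost 4 of 21 open genes, 19.0% (5.45 to 41.9), an interval that includes the 7.02% of all genes. The 4 were TNF, IL1A, IL6 and CXCL8, each a secreted cytokine. CXCL8, IL1A and IL6 (chr7:22726491-22726654, at -627, score 8.54) were open in both untreated lists, and TNF (chr6:31575467-31575608, score 5.72) only in the scored one. IL1A was also absent with olaparib in shMETTL3 cells, while the other 3 were present there. The other 17 were kept, led by BIRC3, a ubiquitin ligase induced by NF-kB, with 12.1 with olaparib and 17.2 untreated. None of the 4 had a gene-start interval in either RKO list.

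The YAP and TEAD list lost 3 of 19 open genes (15.8%, 3.38 to 39.6): CCN2, MYOF (a membrane repair protein, chr10:93482321-93482714, score 9.12) and CRIM1 (a modulator of BMP signals, score 4.81). CCN2 and MYOF were open in both untreated lists. AP-1 and immediate early genes lost 3 of 19 (15.8%, 3.38 to 39.6), namely FOSB, MAFK and BACH2, with scores of 5.00, 3.30 and 5.23. Of these only BACH2 was open in the merged untreated list. JUN was kept with 10.1 with olaparib and 12.3 untreated. For both gene lists the binomial interval includes the 7.02% of all genes. None of the 29 open RAS and MAPK genes was lost, and DUSP5, a phosphatase that switches off ERK, gained chr10:110512496-110512824 (score 7.30), and was open in the merged untreated list.

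Most intestinal genes kept their interval. Of 22 open junction, keratin and brush border genes 3 were lost, 13.6% (2.91 to 34.9). Over all protein-coding genes 7.02% of open ones were lost. CDH1, which encodes E-cadherin, lost chr16:68737139-68737444 at its start (score 10.3), the highest score among lost list members. That interval was absent from the merged untreated list and CDH1 was open with olaparib in shMETTL3 cells. CEACAM1, a cell adhesion receptor, and MUC13, a membrane mucin, had untreated scores of 8.31 and 5.37 and were open in both untreated lists. Among gut transcription factors KLF4, a factor of differentiated epithelium (chr9:107489807-107490267, score 7.61), and SOX2 (5.72) were lost out of 19, 10.5% (1.30 to 33.1). The binomial interval of each of these lists includes 7.02%. KLF4 was open in the merged untreated list and SOX2 was not. CDX2, the caudal homeobox factor that sets intestinal identity, scored 8.52 with olaparib and 10.6 untreated.

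The labelled cell type was checked on markers. Of 10 intestinal epithelial markers 7 were open with olaparib (EPCAM, KRT8, KRT18, VIL1, CDX2, HNF4A and GPA33) and 8 untreated (those and CDH1). CDH17 and KRT20 were open in neither list. Of 6 leukocyte markers 1 was open with olaparib (SPI1) and 2 untreated, of 5 neuronal markers 1 (SYP) and 2, and of 4 fibroblast markers 2 (COL1A1 and PDGFRA) and 1. None of 3 muscle markers was open in either list, and APOA1 was the hepatocyte marker open in both.

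LGR5, a marker receptor of crypt base stem cells, was lost at its promoter and over much of its locus. The olaparib list held 2 intervals within 50000 bp and the untreated list held 8, and both olaparib ones had an untreated partner. The 6 lost intervals included chr12:71438980-71439216 at the lower end of the gene (score 4.92), chr12:71439507-71439874 just inside it (score 8.25) and chr12:71426818-71426924 outside it (score 9.58). LGR5 was open in the merged untreated list and in the olaparib list of shMETTL3 cells, and closed in both RKO lists. The merged list held nothing at the lost chr12:71415726-71415874, chr12:71440946-71441164 and chr12:71575897-71576090. These losses thus rest on the scored untreated list alone. The other Wnt genes were mostly kept, 17 of 18 open ones, with RNF43, a ubiquitin ligase that removes Wnt receptors, at 14.4 with olaparib and 16.9 untreated. TCF7L1, a repressor of Wnt targets, gained chr2:85132951-85133267 (score 8.05), and was open in the merged untreated list.

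CCND1, which encodes cyclin D1, was the single loss among 31 open genes of mitosis and cell cycle entry. The strand was not in the table used, so both ends of the gene were taken. It lost an interval at each end, chr11:69640970-69641223 (score 7.41) and chr11:69654583-69655031 (score 7.83), and kept one just outside the gene (5.97 with olaparib, 9.14 untreated). CCND1 was open in the merged untreated list and in the olaparib list of shMETTL3 cells. The merged list held nothing at chr11:69654583-69655031, so the loss of that interval rests on the scored untreated list alone.

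The largest falls in the number of intervals nearest to a gene were at ANXA4 and SCHIP1, followed by LGR5, IQGAP2 and PLEKHG1 with equal falls. ANXA4, a calcium-dependent membrane-binding protein of secretory epithelia, had 11 intervals with olaparib and 19 untreated nearest to its starts within 50000 bp. Its intervals with the highest scores were kept, such as chr2:69685488-69685948 with 9.79 with olaparib against 16.7 for its untreated partner. All 7 lost intervals there had untreated scores between 3.64 and 8.54. All 7 had a partner in the olaparib list of shMETTL3 cells. The merged untreated list held nothing at chr2:69740727-69740928, chr2:69768341-69768539 and chr2:69781528-69781648, so these losses rest on the scored untreated list alone. SCHIP1, a cytoskeletal adaptor, had 8 with olaparib and 15 untreated, and IQGAP2 and PLEKHG1, regulators of the actin cytoskeleton, each had 5 with olaparib and 11 untreated. TIMP2, an inhibitor of matrix metalloproteinases, had none with olaparib and 5 untreated, with scores between 3.96 and 8.01. FGD4 and RASA3 each had 1 with olaparib and 6 untreated, ZMYND8, a reader of acetylated histones that acts in break repair, 3 and 8, and CAB39, a partner of the LKB1 kinase, 2 and 7.

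Increases were smaller and fewer, in an olaparib list that held 0.777 times as many intervals as the untreated one. The counts by gene that follow were not made with lists of equal length. Over all genes 5647 had fewer intervals with olaparib and 1186 had more, and 351 genes had at least 3 fewer while 6 had at least 3 more. Those 6 were ASXL2, a Polycomb-associated chromatin protein, CACNB4, a calcium channel subunit, EED and LONRF1, each with 4 intervals with olaparib and 1 untreated, LARP1, a repressor of ribosomal protein translation (6 and 3), and STS, steroid sulfatase (5 and 2, with a pair of the 5 on 1 untreated interval). At ASXL2 the promoter interval was present in both lists, with 15.8 with olaparib and 12.9 untreated, and the 3 added intervals had scores between 4.32 and 6.08. At EED and LONRF1 a pair of added intervals carried a single peak score, 7.21 and 5.46. Of 61 genes with 2 more, LOC124900374, MTUS1, POU5F1 and AIMP1 came first by the smaller share kept and then by symbol, and both AIMP1 intervals had untreated partners that were nearest to another gene.

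By windows of 100000 bp, the densest losses lay on chromosomes 14, 2 and 5. In chr14:50000001-50100000, around ARF6, a GTPase of membrane traffic, and VCPKMT, 7 of 14 untreated intervals were lost, and in chr2:69700001-69800000, within ANXA4, 7 of 15. The 7 within ANXA4 are the same lost intervals as those given for that gene above. In chr5:142800001-142900000, within ARHGAP26, a GTPase-activating protein, 6 of 7 were lost, with scores between 4.27 and 8.66, and the remaining one was kept (9.34 with olaparib, 10.8 untreated). Gains clustered less. In chr5:175400001-175500000, by DRD1 (a dopamine receptor) and SFXN1 (a mitochondrial serine transporter), the olaparib list held 3 intervals with scores between 6.43 and 8.49, and the untreated list held none. In chr16:3000001-3100000, 4 of 9 olaparib intervals were gained, near BICDL2, HCFC1R1 and TNFRSF12A, and in chr8:144400001-144500000 again 4 of 9, near PPP1R16A, TMEM276 and TONSL, a protein that repairs stalled replication forks.

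Chromatin regulators held 4 of the 12 gains over all lists. Of their 6 members closed in the untreated list, 4 were gained: EED and SUZ12, subunits of PRC2, SMARCA4 (BRG1), the motor of SWI/SNF remodelling, and NSD1, a histone H3 lysine 36 methyltransferase. Over all protein-coding genes 3.56% of closed ones were gained, and 6 members are too few for a share to be set against that. EED and SMARCA4 (chr19:10960501-10960947, score 5.69) were open in the merged untreated list. SUZ12 (chr17:31936508-31936710, score 3.82) and NSD1 (chr5:177134398-177134627, score 4.73) were closed in it, and only NSD1 of that pair was also open with olaparib in shMETTL3 cells. ARID1A, another SWI/SNF subunit, lost an interval of score 5.05 and was the single loss among these regulators. Of the 12 gained genes over all lists, 7 were already open in the merged untreated list, and 2, NSD1 and the cardiac troponin gene TNNT2, were gained against both untreated lists and in both olaparib lists.

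**Figure D4:**
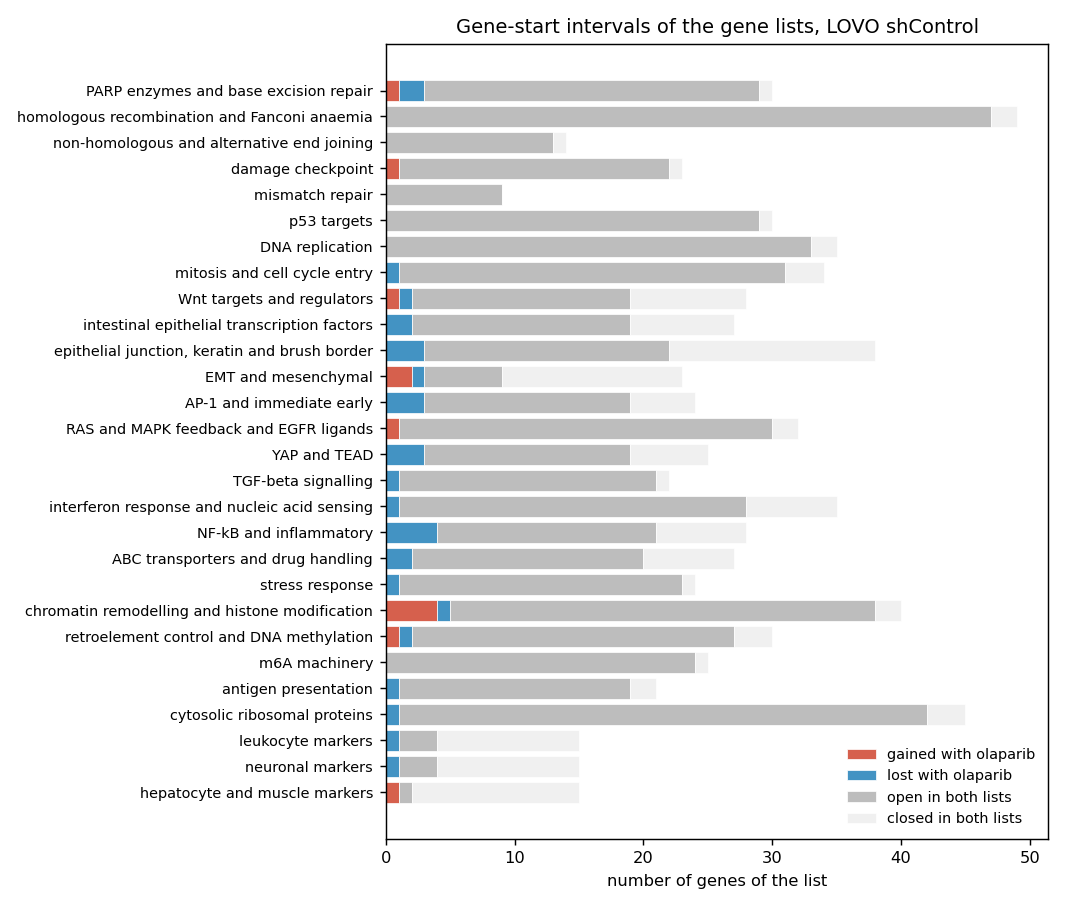
Number of genes of each list (x axis) gained with olaparib (red), lost with olaparib (blue), open in both lists (grey) and closed in both (pale), for the 28 gene lists (y axis). No open gene was lost among 47 of the homologous recombination and Fanconi anaemia list or 29 p53 targets, against 4 of 21 in the NF-kB and inflammatory list. Of 6 closed chromatin regulators 4 were gained. Over all protein-coding genes 7.02% of open ones were lost and 3.56% of closed ones were gained. The binomial interval of each lost share named here includes 7.02%, and 6 closed members are too few for a share.

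The remaining lists had 0 to 2 lost members, beside 7.02% of open genes lost over all protein-coding genes. Of drug-handling genes ABCC2, an efflux pump of the apical membrane (score 7.49), and ABCA2 (6.31) were lost out of 20. Single losses follow, each with its score and the number of open members of its list. They were IFI44, an interferon-induced gene (10.1, of 28), LTBP1, a protein that stores latent TGF-beta (8.13, of 21), and HSPA1A, an inducible chaperone (8.45, of 23). SIRT6, a chromatin deacetylase that acts in break repair and on LINE1 (4.97, of 26), and TAPBP, a chaperone of HLA class I (4.68, of 19), were others. So were RPS23 (5.49, of 42) and VIM, the mesenchymal intermediate filament (5.55, of 7). Among markers CD3E (8.42) was lost of 4 open leukocyte ones, and SNAP25 (4.45) of 4 open neuronal ones. HSPA1A, SIRT6, RPS23 and CD3E were closed in the merged untreated list. Where a gene lost several intervals at its start, the score is that of the highest. HSPA1A has a near-identical copy, HSPA1B, so its reads are uncertain. SNAI1, a repressor of CDH1 (score 5.85), COL1A1, a collagen of fibroblasts (5.46), and APOBEC3D, a cytidine deaminase that restricts retroelements (7.51), were gained. SNAI1 and APOBEC3D were open in the merged untreated list and COL1A1 was not.

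In RKO cells with the control hairpin the balance was different, which was not tested. The untreated RKO group also has samples labelled as a second batch, and no second untreated RKO list was used as a check. There 88.5% of untreated intervals were kept (88.1 to 88.9) and 29.2% of olaparib intervals were gained (28.6 to 29.7), with 1.22 times as many intervals with olaparib as untreated. Gene starts were kept more often than intervals between genes in RKO too, 94.1% against 84.2%. Intervals lost in LOVO were less often open in untreated RKO cells than kept ones, 17.5% against 41.7%. Of 316 genes lost in LOVO and open in untreated RKO cells 37 were lost there, 11.7%, against 2.32% of all RKO open genes. Of 199 genes gained in LOVO and closed in untreated RKO cells 61 were gained there, 30.7%, against 11.3% of all RKO closed genes. Neither comparison was matched for score. In LOVO, lost genes had a median untreated score of 6.14 against 11.2 for genes open in both lists. Whether the lines share an effect of olaparib was not tested.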

How the data were processed

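ATAC-seq libraries were made with a VAHTS kit, per the labels' protocols. The submitters' processing notes name the build hg38, the peak caller MACS2 2.2.7.1, the aligner Bowtie2 2.4.2, the trimmer Trim Galore 0.6.6 and DiffBind 3.0.15, without settings. Read shifting, filters and the pooling of samples were not stated in the labels or headers. Each scored interval the authors deposited has a peak name of replicate 1 and a score in column 5 of unstated meaning. The merged list has no score. In the olaparib and untreated lists 3.84% and 4.19% of intervals shared their peak name with another.

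Which untreated list holds the second-batch samples is not given, so batch and list form cannot be told apart. Nor can batch and olaparib, because the olaparib samples carry no batch label. Overlap needed 1 bp. Gene starts came from RefSeq promoters on GRCh38.p14 for 15826 of 20037 protein-coding genes, and both gene ends served for the rest. Gene bodies were not split into exons and introns. Intervals within 50000 bp went to the nearest gene start. All 763 list entries matched a symbol. Python 3.11.15, pandas 2.3.3 and scipy 1.17.1 were used, and the overlap code was tested on simulated data.

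Genes named were list members lost or gained, up to 3 kept members a list by score, the 10 highest-scoring lost and gained intervals, the 10 genes with the largest fall and rise (ties by the smaller share kept, then by symbol), the 3 densest windows each way and 9 genes of the drug's pathway. Further kept genes (BRCA2, CDX2) and the promoters so marked were picked with their values in view. The members and lists were chosen with earlier results of these data known.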

Additional observations from a re-analysis of the deposited data

Results flagged for a closer look

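The number of intervals moved in opposite directions in the 2 lines: with olaparib it was 0.777 times the untreated number in LOVO shControl cells and 1.22 times in RKO shControl cells. In covered bases the ratios were 0.873 in LOVO and 1.40 in RKO. These ratios use the scored untreated list. The merged untreated LOVO list had 33474 intervals over 21.6 Mb, beside 32192 over 12.3 Mb with olaparib, so the size of the LOVO ratio depends on the untreated list taken. No second untreated list was used for RKO, whose untreated group also has second-batch samples, so the RKO ratio was not checked in this way. With 1 olaparib list a line the difference between the lines was not tested, and the part of library depth in it was not tested either.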

How the results depend on the processing

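The share of untreated intervals kept, 71.8%, was 70.5% with 50% of the narrower interval shared, 63.1% with 50% of both, 72.8% with gaps up to 250 bp allowed, 80.9% with the untreated list held to as many intervals as the olaparib list, 74.4% in the top 10000 of both, 77.0% against the merged list and 83.0% for intervals in both untreated lists. The gained share, 9.19%, was 10.5%, 18.7%, 8.53%, 20.2%, 26.3%, 16.6% and 5.48% under these settings in the same order. Dropping the lowest 25% of scores moved neither by more than counting error. Genes lost, 795, fell to 363 with equal list lengths, 501 against the merged list and 339 with both untreated lists, and genes gained, 310, became 1185, 921 and 184, and 1204 in the top 10000. With lists of equal length more genes were thus gained than lost. The gap between gene starts and intervals between genes, 19.9 points, was positive throughout: 18.8, 13.8, 21.2, 17.1, 10.9, 23.5 and 12.7 under the 7 settings in order, 21.0 without the lowest 25%, and 22.5 and 17.2 with windows of 500 and 2500 bp. The cause of each shift was not tested beyond the change in what was compared. Gene counts were not run with 50% of both intervals, which a gene window seldom allows. No paired analysis was possible because each deposited list stands for a group, which also left no sample to leave out. The depth of the lists is unknown, and its part in the counts was not tested.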
